A study of Mus musculus with 7 samples.

Results

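Among the 5898 regions of open chromatin that the authors deposited for adipose tissue macrophages, 57 were assigned to 38 genes of glycosyltransferases, carbohydrate sulfotransferases and Golgi mannosidases. These glycosylation regions were chosen by the gene symbol of the deposited annotation, through the name stems of these enzyme families (Galnt, Mgat, Hs3st, Chst and the like). The 10 regions of Xylt1 were left out by the rule. Of the 38 genes, 27 had a single region and 11 had several, which are numbered here by their position along the chromosome. Macrophages were sorted by FACS from fat tissue of adult male C57Bl/6J mice, and their nuclei were assayed by ATAC-seq, which tags open chromatin with adapters carried by a transposase. In the HFD-RD group (2 libraries), 11 weeks on a high-fat diet (60% lipid) were followed by 9 weeks on a regular diet (10% lipid), a switch meant to bring about weight loss. In the HFD group (3 libraries), mice ate the high-fat diet for 11 weeks. In the RD-RD group (2 libraries), mice ate the regular diet for 20 weeks. HFD mice were thus on the study for 9 weeks fewer than the others, so in every comparison with them diet and time on study cannot be told apart. The labels do not say whether a library came from 1 animal or from a pool, so p-values measure the spread between these libraries only.

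Cells build glycans in the endoplasmic reticulum and the Golgi, where glycosyltransferases add sugars from nucleotide donors to proteins and lipids. N-glycans are trimmed by mannosidases and then branched by the Mgat enzymes. Mucin-type O-glycans are started by the Galnt enzymes, and sialyltransferases and fucosyltransferases cap and decorate the chains. Heparan and chondroitin sulfate are long chains whose sulfate groups, placed by sulfotransferases, form binding sites for chemokines, growth factors and lipoproteins. On macrophages these glycans are bound by galectins, siglecs and selectins.

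The source names of all 7 libraries give another diet than their titles and diet labels do. Titles and diet labels were followed here. Across the 57 regions, libraries of the same group correlated with Pearson's r of 0.950 to 0.983 on the log2 scale, and libraries of HFD-RD and RD-RD with r of 0.485 to 0.578, where regions are not independent replicates. Since each region was deposited because the groups named in the titles differed there, this does not decide between the labels. Within a library all values are whole multiples of 1 step. Taking that step as 1 read, reads in all deposited regions numbered 889422 to 2807495 per library, and the median glycosylation region held 70 to 276 reads. None of the 10 macrophage markers checked, Csf1r, Adgre1 and Cd68 among them, had a deposited region, so the labelled cell type could not be checked in these data. Values are the authors' normalized counts, which, if 1 step is 1 read, are the reads of a region divided by 1 size factor per library. A change is a log2 difference from limma on log2(normalized count + 1), given with its standard error, and a region is called where the Benjamini–Hochberg adjusted p over all 5898 regions is 0.05 or less. With TMM (trimmed mean of M-values) factors in place of the authors' scaling, the median change of all regions moved by -0.76 in HFD-RD minus RD-RD and by -0.80 in HFD minus RD-RD. With equal totals per library it moved by -0.19 in HFD-RD minus RD-RD and by -0.21 in HFD-RD minus HFD.

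Of the 38 genes, 25 had a promoter sequence in the RefSeq table (GRCm38.p6, 300 bases around a gene start), and regions of 5 genes covered 6 of these windows. The 4 shown were chosen because accessibility at the Chst8, Hs3st3a1 and St3gal6 starts was lower in HFD-RD and HFD than in RD-RD, whereas at Galnt11 it was higher in HFD-RD than in RD-RD. Capitals mark every match on either strand to 3 motifs. These are the GC box, searched as GGGCGG, the CCAAT box, searched in the reverse orientation as ATTGG, and the E-box, whose letters CACGTG read the same on both strands.
Chst8: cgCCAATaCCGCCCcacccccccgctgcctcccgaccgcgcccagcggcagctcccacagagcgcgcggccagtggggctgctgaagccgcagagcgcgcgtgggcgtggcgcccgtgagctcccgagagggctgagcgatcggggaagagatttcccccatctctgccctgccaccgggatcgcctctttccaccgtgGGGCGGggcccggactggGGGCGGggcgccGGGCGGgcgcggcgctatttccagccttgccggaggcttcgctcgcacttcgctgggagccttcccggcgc
Hs3st3a1: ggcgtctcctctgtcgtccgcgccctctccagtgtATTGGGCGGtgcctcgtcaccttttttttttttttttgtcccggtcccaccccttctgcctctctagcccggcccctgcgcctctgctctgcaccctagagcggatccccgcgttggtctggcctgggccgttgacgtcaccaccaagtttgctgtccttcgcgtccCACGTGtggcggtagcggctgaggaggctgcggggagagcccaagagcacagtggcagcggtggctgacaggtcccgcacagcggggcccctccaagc
St3gal6: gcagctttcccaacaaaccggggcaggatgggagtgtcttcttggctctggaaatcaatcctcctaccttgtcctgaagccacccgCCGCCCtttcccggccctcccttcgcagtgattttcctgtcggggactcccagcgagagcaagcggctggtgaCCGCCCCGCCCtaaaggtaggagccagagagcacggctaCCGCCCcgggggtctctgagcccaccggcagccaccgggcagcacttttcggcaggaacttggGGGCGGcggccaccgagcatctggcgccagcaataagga
Galnt11: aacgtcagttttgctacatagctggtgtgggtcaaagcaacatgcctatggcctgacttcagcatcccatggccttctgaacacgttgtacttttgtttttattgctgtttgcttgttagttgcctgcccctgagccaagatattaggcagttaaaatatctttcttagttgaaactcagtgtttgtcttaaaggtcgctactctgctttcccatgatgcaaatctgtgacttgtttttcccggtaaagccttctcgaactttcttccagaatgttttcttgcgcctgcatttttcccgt

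The Chst8 window lies on the minus strand at chr7:34812662-34812961, holds 38 CpG dinucleotides and has 4 GC boxes and 1 CCAAT box. The Hs3st3a1 window lies on the plus strand at chr11:64435082-64435381, holds 23 CpGs and has 1 E-box and 1 CCAAT box that overlaps 1 GC box. The St3gal6 window shown lies on the minus strand at chr16:58523377-58523676, with 20 CpGs and 5 GC boxes, while the other St3gal6 window in the same region, chr16:58524204-58524503, had 3 CpGs and 1 CCAAT box. Galnt11 differed from these: its window on the plus strand at chr5:25246123-25246422 holds 7 CpGs and no match, and the region covered 120 of its bases. The Chst10 window, covered over 104 bases, held 21 CpGs and 1 CCAAT box. Among all 32851 promoter windows of the table the median was 7 CpGs and the upper quartile 20, and 35.66% held a GC box, 37.41% a CCAAT box and 7.15% an E-box. Motifs of AP-1 (TGANTCA), PU.1 (GAGGAAGT), interferon regulatory factors (the IRF motif) and C/EBP (TTGCNNAA) were searched as well and matched none of the 6 windows, against 7.808%, 3.202%, 3.443% and 10.8% of all windows. These matches describe letters in a window and not bound factors.

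The first comparison asks how macrophages of mice that had returned to the regular diet differed from those of mice that had never left it. In HFD-RD relative to RD-RD, 31 of the 57 regions were called higher and 24 lower, against a background of 64.8% higher and 32.4% lower among all deposited regions. These shares, 54.4% and 42.1% of the glycosylation regions, are a description, since each region had been deposited because it differed in at least 1 comparison, and the tests here are not independent of that selection. The median change was 0.67 for the glycosylation regions and 1.03 for all regions. Both HFD-RD libraries lay above both RD-RD libraries in 31 of the 57 regions (54.4%, background 65.4%), the same 31 that were called higher. Both lay below in 24 (42.1%, background 32.7%), the same 24 that were called lower. Among all 5898 regions such separation (3856 above and 1928 below) was about as frequent as the calls (3822 and 1909), so it adds little to them. In bulk nuclei, fewer cells of a kind and less open chromatin per cell cannot be told apart. With TMM factors 9 regions were called higher and 24 lower, and all deposited regions then had 17.7% higher and 33.9% lower. The 24 lower were the same regions, while 22 of the 31 calls higher were lost. Those still called higher were Mgat5 regions 1, 3 and 4, Mgat4b, Galnt15, Extl3 regions 2 and 3, Chst11 and Ugt1a10. Leaving out each library in turn lost 6 of the calls higher, those of Extl3 region 1, Fut8, Galnt11, Hs2st1, Mgat5 region 6 and Ugt1a6b, and 0 of those lower.

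In HFD relative to RD-RD, 29 glycosylation regions were called higher and 23 lower, with a background of 59.2% and 29.0%. All 3 HFD libraries lay above both RD-RD libraries in 30 regions (background 61.0%) and below both in 23 (background 31.6%). The median change was 0.63, beside 0.75 for all regions. With TMM factors 21 of the 29 calls higher were lost and the 23 lower were kept, and of all deposited regions 13.2% were higher and 35.7% lower. Those still called higher were Mgat5 regions 3 and 4, Man1c1 region 1, both B3galnt1 regions, Galnt15, Extl3 region 3 and Chst2. Calls lost without at least 1 library were 4 of those higher (Man1a2, B4galnt1 region 1, St3gal1 and Hs6st1 region 2) and 8 of those lower (B4galnt1 region 2, Chst1, Ext1, Galnt12 region 2, Galnt14 region 2, Hs3st2 region 1, Hs3st5 and St3gal6). This comparison and the first share the RD-RD libraries. In HFD-RD relative to HFD, 3 regions were called higher and 9 lower, with a background of 10.2% and 12.8%, and 45 were not called. Every one of these 12 calls was lost when at least 1 library was left out. The mean of HFD lay between the means of HFD-RD and RD-RD in 37 of the 57 regions (64.9%), above both in 16 (28.1%) and below both in 4 (7.02%). For all deposited regions these shares were 70.7%, 24.2% and 5.02%.

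**Figure D1:**
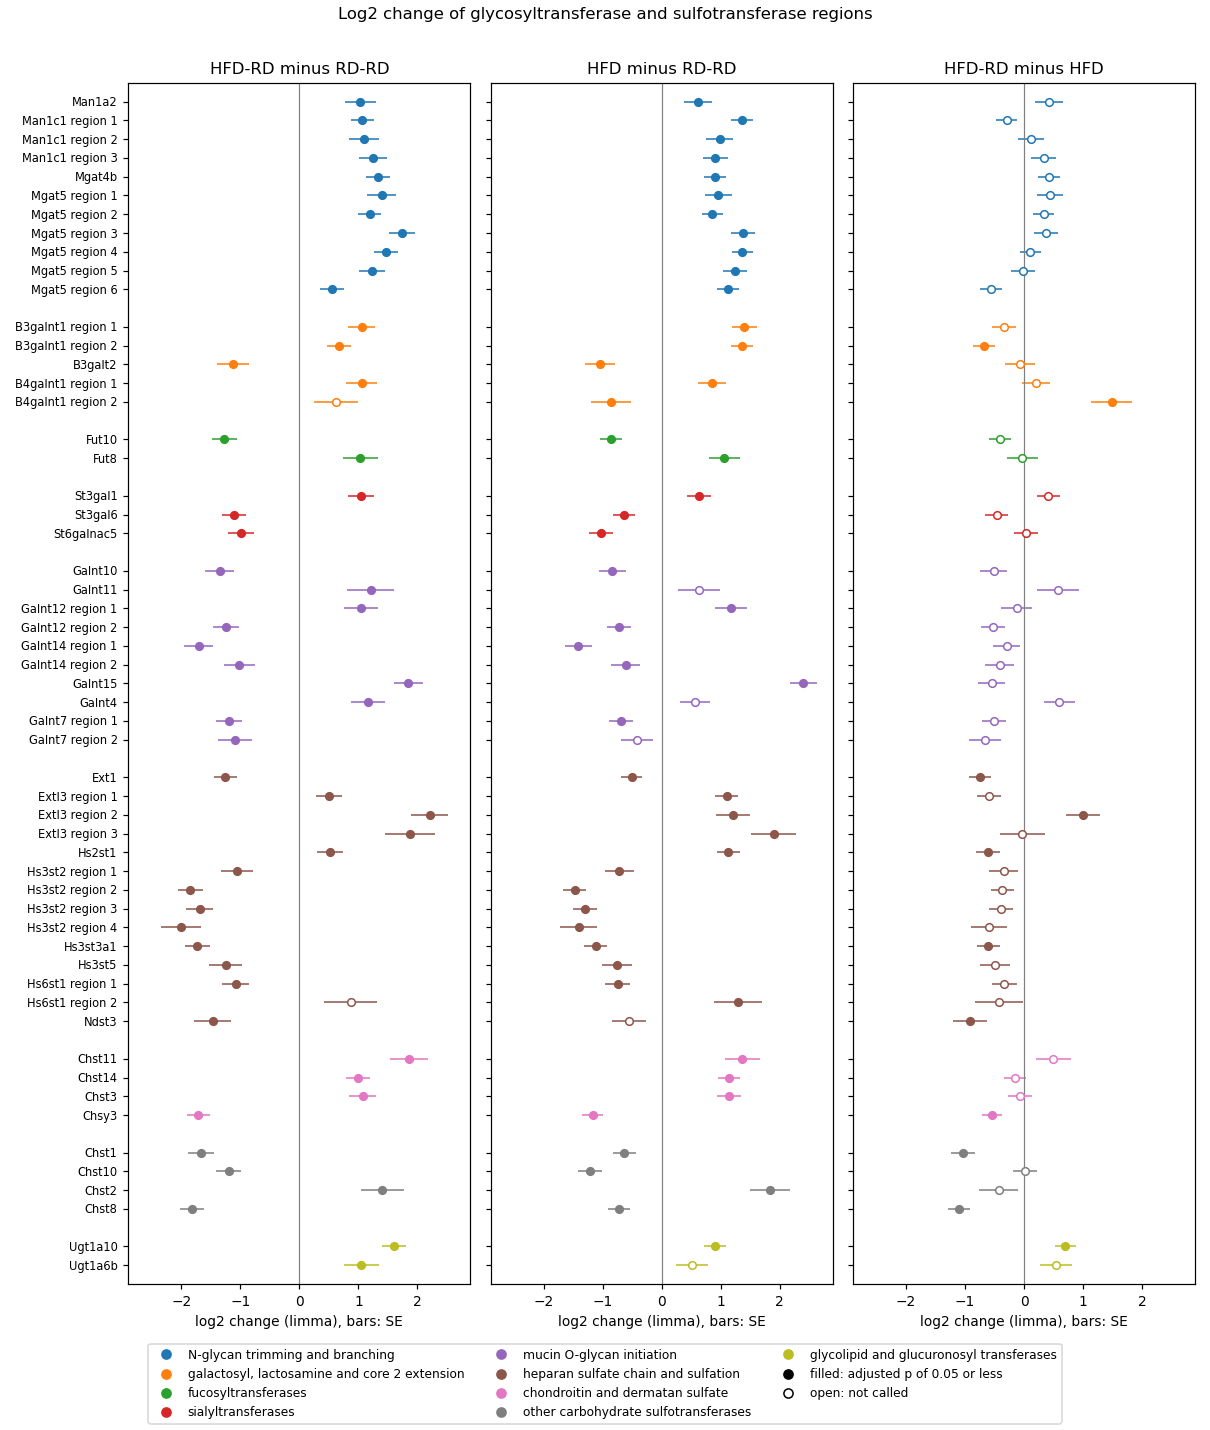
Log2 change of 55 regions (x axis, limma; bars are standard errors) in HFD-RD minus RD-RD, HFD minus RD-RD and HFD-RD minus HFD, grouped by enzyme family. Filled points had an adjusted p of 0.05 or less. All 11 N-glycan regions lie right of 0 in the first 2 panels, the 4 Hs3st2 regions lie left of 0 in all 3, and in the third panel 44 of the 55 points are open.

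Markers of other cell types were checked alongside. Of 68 genes in 10 such lists 18 had a deposited region, 24 regions in all. In HFD-RD relative to RD-RD 10 were higher and 14 lower (41.7% and 58.3%), beside 64.8% and 32.4% of all deposited regions. In HFD relative to RD-RD 9 were higher and 12 lower (37.5% and 50.0%), beside 59.2% and 29.0%. With TMM factors they were 1 and 14 in the first (background 17.7% and 33.9%) and 0 and 15 in the second (background 13.2% and 35.7%). The summed normalized count of the 24 marker regions was 4554 to 4793 in HFD-RD, 4857 to 5069 in HFD and 5583 to 5859 in RD-RD. The monocyte, NK cell and mast cell and eosinophil lists had 0 regions. Neither Cd3e, S100a8, Adipoq nor Pdgfra had a region, but other genes of their lists did, such as Cd4, Csf3r, Fabp4 and Pdgfrb. The lists went different ways. In HFD-RD relative to RD-RD, endothelial markers had 5 regions higher and 3 lower, and adipocyte markers 1 and 0. Fibroblast and adipose progenitor markers had 1 and 1. The neutrophil list had 0 and 2, the dendritic cell and T cell lists 1 and 2 each, and the B cell list 1 and 4. Siglech, a dendritic cell marker, is also on the list of glycan carriers and readers. The part of other cell types in the glycosylation results was not tested.

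In the N-glycan family every region moved one way. All 11 regions of Mgat5, Mgat4b, Man1c1 and Man1a2 were called higher in HFD-RD relative to RD-RD and all 11 in HFD relative to RD-RD, with median changes of 1.22 and 0.98. The regions come from 4 genes, 6 of them from Mgat5, and the background was 64.8% and 59.2% higher. With TMM factors 4 and 3 of the 11 were called higher, with a background of 17.7% and 13.2%, and then 1 had a change below 0 in each comparison. With equal totals 10 and 11 were called higher, beside 62.1% and 60% of all deposited regions. None was called between HFD-RD and HFD. Of the 11 regions, 10 lay inside the gene by the deposited annotation and the other was 16703 bp upstream of Man1c1. Of all deposited regions inside genes, 71.7% were higher in HFD-RD and 64.9% in HFD, both relative to RD-RD.

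Mgat5 encodes the GlcNAc-transferase that adds the branch of N-glycans on which galectin ligands are extended, and it had 6 regions over 133223 bp of chromosome 1, all inside the gene. Region 4 (chr1:127277811-127279251) had 925 and 790 normalized counts in the HFD-RD libraries, 790, 753 and 843 in HFD and 290 and 325 in RD-RD. HFD-RD and HFD overlapped there and both lay above RD-RD. The change was 1.47 ± 0.20 in HFD-RD relative to RD-RD (limma adjusted p = 0.000142) and 1.37 ± 0.18 in HFD relative to RD-RD (limma adjusted p = 0.000193), and that between HFD-RD and HFD was 0.11 ± 0.18. Region 3 (chr1:127246187-127246982) had 148 and 131 in HFD-RD, 129, 90.5 and 106 in HFD and 39.9 and 41.8 in RD-RD. Every library of HFD-RD exceeded every HFD library, and every HFD library exceeded both RD-RD libraries. Its changes were 1.74 ± 0.22 in HFD-RD relative to RD-RD (limma adjusted p = 0.000108) and 1.37 ± 0.20 in HFD relative to RD-RD (limma adjusted p = 0.000258).

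The 6 Mgat5 regions did not keep the same order of diets. In region 1, 2 and 3, 7739 to 41172 bp from the gene start, both HFD-RD libraries were above all 3 HFD libraries, with changes of 0.44, 0.34 and 0.37 that did not pass the test. In region 6, 139427 bp from the start, the order was turned, with 336 and 357 in HFD-RD, 491, 466 and 581 in HFD and 224 and 245 in RD-RD. There the change was 0.56 ± 0.20 in HFD-RD relative to RD-RD (limma adjusted p = 0.0193), 1.12 ± 0.19 in HFD relative to RD-RD (limma adjusted p = 0.000422) and -0.56 ± 0.19 in HFD-RD relative to HFD (limma adjusted p = 0.0508). The last was called with TMM factors (-0.52) and with equal totals (-0.77). The first was lost without HFD-RD replicate 2 (0.52), without RD-RD replicate 1 (0.50) and with equal totals (0.37), and was -0.21 with TMM factors. Region 5, which ends 673 bp before region 6, had a change of 1.22 in HFD-RD relative to RD-RD and of -0.01 in HFD-RD relative to HFD.

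Man1c1 and Man1a2 encode Golgi mannosidases, which remove mannose and so prepare N-glycans for branching; they are not transferases and were matched by the stem of their names. The 3 Man1c1 regions rose by 1.07 ± 0.20, 1.10 ± 0.25 and 1.25 ± 0.23 in HFD-RD relative to RD-RD and by 1.36 ± 0.18, 0.98 ± 0.22 and 0.91 ± 0.21 in HFD relative to RD-RD. Region 1 had 337 and 305 in HFD-RD, 423, 369 and 389 in HFD and 151 and 154 in RD-RD, so that HFD was the highest group. In region 3 the order was the other way, with 135 and 152 in HFD-RD, 118, 104 and 119 in HFD and 48.6 and 73.4 in RD-RD. Man1a2, the other mannosidase, had 111 and 93.5 in HFD-RD, 75.0, 72.4 and 80.0 in HFD and 37.4 and 64.8 in RD-RD. Its change relative to RD-RD was 1.04 ± 0.26 in HFD-RD and 0.61 ± 0.23 in HFD (limma adjusted p = 0.0288), the second of which was lost without RD-RD replicate 1 (0.22) and without HFD replicate 1 (0.62) or 3 (0.57). Mgat4b, which adds another branch to N-glycans, had 69.3 and 86.1 in HFD-RD, 60.5, 58.4 and 53.3 in HFD and 28.6 and 31.7 in RD-RD. The 3 groups did not overlap, and Mgat4b rose by 1.33 ± 0.21 in HFD-RD (limma adjusted p = 0.00024) and by 0.91 ± 0.19 in HFD (limma adjusted p = 0.00118), both relative to RD-RD. The deposited annotation places this region inside Mgat4b, while it lies before the RefSeq gene.

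**Figure D2:**
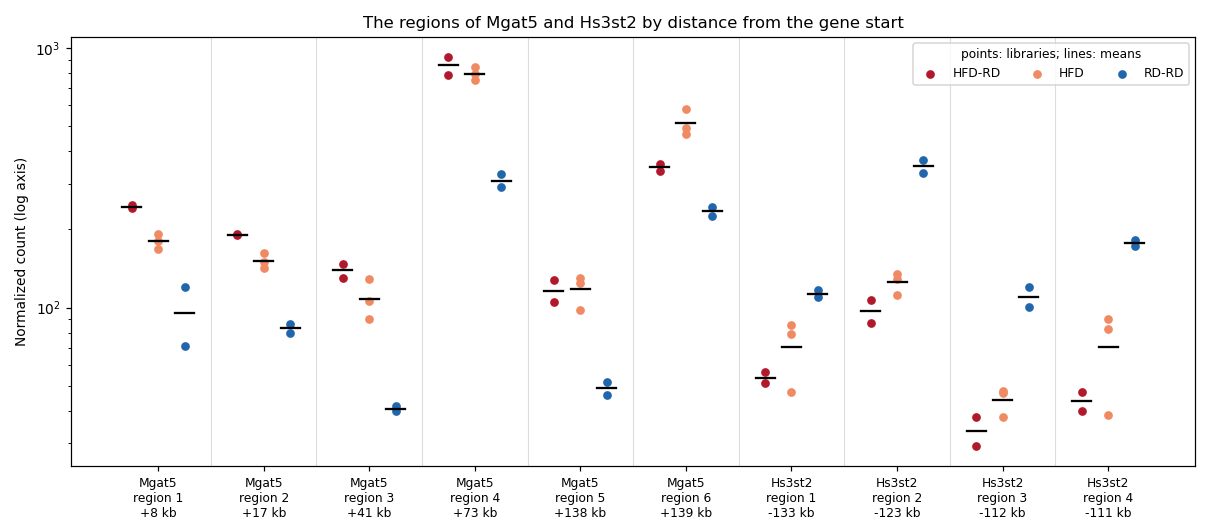
Normalized counts (log axis) of the 6 Mgat5 and 4 Hs3st2 regions in each library, with lines at the group means and the distance from the gene start under each name. Both RD-RD libraries are the lowest at every Mgat5 region and the highest at every Hs3st2 region, and HFD is highest at Mgat5 region 6.

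Fut8 encodes the enzyme that adds the core fucose of N-glycans. Its region (chr12:77539520-77540141), 301395 bp downstream of the gene start, had 170 and 137 normalized counts in HFD-RD, 168, 125 and 178 in HFD and 54.8 and 99.4 in RD-RD. Both groups with a high-fat period lay above RD-RD and overlapped each other. Fut8 rose by 1.04 ± 0.29 in HFD-RD (limma adjusted p = 0.00498, lost without RD-RD replicate 1, at 0.61) and by 1.06 ± 0.27 in HFD (limma adjusted p = 0.00335), both relative to RD-RD. With TMM factors neither was called, at 0.27 and 0.26. Fut10, another fucosyltransferase gene, was lower at its gene start (chr8:31186737-31187951), with 376 and 401 in HFD-RD, 562, 443 and 554 in HFD and 919 and 956 in RD-RD. The groups did not overlap. Fut10 fell by 1.27 ± 0.21 in HFD-RD (limma adjusted p = 0.000297) and by 0.86 ± 0.19 in HFD (limma adjusted p = 0.00161) relative to RD-RD.

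Among genes that add galactose or GalNAc to lipids and lactosamine chains, 3 of 5 regions were called higher and 1 lower in HFD-RD relative to RD-RD, but with TMM factors 0 were higher and 1 was lower. All deposited regions had 64.8% higher and 32.4% lower, and 17.7% and 33.9% with TMM factors. B3galnt1 encodes the synthase of the globoside lipids. Region 1 (chr3:69519166-69519739), which lies in the neighbouring gene Ppm1l, had 76.6 and 93.5 in HFD-RD, 103, 97.9 and 124 in HFD and 34.9 and 46.1 in RD-RD. HFD was the highest group and RD-RD the lowest, with changes of 1.06 ± 0.23 in HFD-RD (limma adjusted p = 0.00103) and 1.40 ± 0.21 in HFD (limma adjusted p = 0.000266) relative to RD-RD. In region 2, 9687 bp away and also in Ppm1l, the 3 groups were apart as well, with 159 and 152 in HFD-RD, 254, 222 and 274 in HFD and 103 and 90.7 in RD-RD. Its change between HFD-RD and HFD was -0.68 ± 0.19 (limma adjusted p = 0.0257), and that of HFD-RD relative to RD-RD, 0.67 ± 0.20 (limma adjusted p = 0.00737), was -0.089 with TMM factors.

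B4galnt1 encodes the synthase of the gangliosides GM2 and GD2, and its regions differed in pattern. Region 2 (chr10:127162732-127163241), 2493 bp upstream of the start, had 126 and 125 in HFD-RD, 42.9, 48.5 and 41.3 in HFD and 47.3 and 138 in RD-RD. HFD-RD lay far above HFD, with a change of 1.49 ± 0.34 (limma adjusted p = 0.0142), while the RD-RD libraries fell on either side. Against RD-RD the change was 0.62 ± 0.38 in HFD-RD (limma adjusted p = 0.128), and 1.39 and called without RD-RD replicate 2. The change of HFD relative to RD-RD, -0.86 ± 0.34 (limma adjusted p = 0.0338), was -0.10 without that library. Without HFD-RD replicate 1 or 2 the rise of HFD-RD over HFD kept its size (1.48 and 1.49) but was not called. Region 1, 11686 bp away, had 210 and 196 in HFD-RD, 165, 158 and 211 in HFD and 76.0 and 124 in RD-RD, and its change relative to RD-RD was 1.06 ± 0.26 in HFD-RD (limma adjusted p = 0.00216). B3galt2, a galactosyltransferase gene 898383 bp from its region, had 62.0 and 31.5 in HFD-RD, 45.2, 48.5 and 46.4 in HFD and 103 and 92.2 in RD-RD. That region fell by 1.12 ± 0.28 in HFD-RD (limma adjusted p = 0.0024) and by 1.05 ± 0.25 in HFD (limma adjusted p = 0.00286) relative to RD-RD, but Cdc73 is the coding gene nearest to it.

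Of the sialyltransferases, 1 region was called higher and 2 lower in both comparisons with RD-RD. The background was 64.8% higher and 32.4% lower in HFD-RD, and 59.2% and 29.0% in HFD. St3gal6, whose product caps the lactosamine ends from which selectin ligands are built, was covered at its start by a region of 2932 bp (chr16:58522095-58525026) with 527 and 688 normalized counts in HFD-RD, 844, 796 and 860 in HFD and 1376 and 1227 in RD-RD. The order of the groups held for every library. St3gal6 fell by 1.11 ± 0.21 in HFD-RD (limma adjusted p = 0.000561) and by 0.64 ± 0.19 in HFD (limma adjusted p = 0.00858, lost without RD-RD replicate 1, at -0.56) relative to RD-RD. St3gal1, which sialylates short mucin-type O-glycans, had a region 89548 bp downstream of its start (chr15:67087282-67089900) with 733 and 717 in HFD-RD, 559, 598 and 484 in HFD and 306 and 402 in RD-RD. Here every HFD-RD library was above HFD and every HFD library above RD-RD, and the changes relative to RD-RD were 1.05 ± 0.22 in HFD-RD (limma adjusted p = 0.00085) and 0.63 ± 0.20 in HFD (limma adjusted p = 0.0107). With TMM factors neither was called, at 0.28 and -0.17, and without RD-RD replicate 1 that of HFD, 0.44, was not called. St6galnac5, a sialyltransferase of gangliosides, had changes of -0.99 ± 0.22 in HFD-RD and -1.03 ± 0.20 in HFD relative to RD-RD inside the gene.

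Genes that start mucin-type O-glycans went both ways, 4 of 10 regions higher and 6 lower in HFD-RD relative to RD-RD, and 2 higher and 5 lower in HFD relative to RD-RD (1 higher and 6 lower with TMM factors in each). The background was 64.8% higher and 32.4% lower in the first comparison and 59.2% and 29.0% in the second. With TMM factors it was 17.7% and 33.9%, and 13.2% and 35.7%. Galnt15 (chr14:32049401-32050823, inside the gene) showed the largest rise of all 57 regions in HFD relative to RD-RD. It had 430 and 554 in HFD-RD, 718, 560 and 911 in HFD and 137 and 132 in RD-RD. HFD lay above HFD-RD, and both far above RD-RD, with changes of 1.85 ± 0.25 in HFD-RD (limma adjusted p = 0.000142) and 2.40 ± 0.23 in HFD (limma adjusted p = 9.34e-05) relative to RD-RD. The change of -0.55 ± 0.23 between HFD-RD and HFD did not pass the test (limma adjusted p = 0.0987). Galnt14 region 1 (chr17:73709795-73710358), 658 bp inside the gene start, had 25.5 and 27.8 in HFD-RD, 36.6, 40.3 and 24.1 in HFD and 92.2 and 86.4 in RD-RD. RD-RD stood apart above both other groups, and the changes relative to RD-RD were -1.71 ± 0.25 in HFD-RD (limma adjusted p = 0.000193) and -1.41 ± 0.23 in HFD (limma adjusted p = 0.000381).

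The other Galnt regions were smaller changes of the same kinds. In HFD-RD relative to RD-RD, Galnt14 region 2, both regions of Galnt7 and that of Galnt10 were called lower, at -1.02, -1.20, -1.09 and -1.35, and Galnt4 and Galnt11 higher, at 1.17 and 1.21. Neither Galnt4 nor Galnt11 was called in HFD relative to RD-RD, at 0.57 and 0.63. Galnt11 had 129 and 65.7 in HFD-RD and 29.9 and 51.8 in RD-RD, and was not called without HFD-RD replicate 1 (0.72) or without RD-RD replicate 1 (0.82). Galnt12 had 1 region of each direction: region 1, inside the gene, changed by 1.05 ± 0.29, and region 2, downstream of the gene's start by 44632 bp, by -1.25 ± 0.22. Both were called in HFD relative to RD-RD too, at 1.17 and -0.72. The Galnt7 regions lie nearer to Galntl6 and that of Galnt4 lies in Poc1b, so their gene is that of the deposited annotation only.

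Heparan sulfate genes had 14 regions of 8 genes, of which 9 were called lower and 4 higher in HFD-RD relative to RD-RD, and 8 lower and 5 higher in HFD relative to RD-RD. Of all deposited regions 32.4% were lower and 64.8% higher in HFD-RD, and 29.0% and 59.2% in HFD. The median changes were -1.17 and -0.64. With TMM factors 9 were lower in each comparison and 2 and 1 higher. All deposited regions then had 33.9% lower and 17.7% higher in HFD-RD, and 35.7% and 13.2% in HFD. The regions called lower in HFD-RD belonged to Ext1, which is part of the polymerase of the chain, Ndst3, a gene for the N-deacetylase and N-sulfotransferase step, Hs6st1, for 6-O-sulfation, and to 3 genes of 3-O-sulfotransferases, Hs3st2, Hs3st3a1 and Hs3st5. Those called higher belonged to Extl3, which starts the chain, and to Hs2st1, for the 2-O-sulfation of uronic acid.

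Hs3st2 had 4 regions within 22741 bp, 111130 to 133203 bp upstream of its start, and all 4 were called lower in both comparisons with RD-RD and under TMM factors and equal totals. Region 2 (chr7:121269091-121269835) had 87.5 and 106 in HFD-RD, 129, 112 and 135 in HFD and 371 and 330 in RD-RD. The HFD-RD libraries were the lowest and the RD-RD libraries the highest, with changes of -1.85 ± 0.21 in HFD-RD (limma adjusted p = 7.08e-05) and -1.48 ± 0.19 in HFD (limma adjusted p = 0.000175) relative to RD-RD. Region 4 (chr7:121280729-121281396) had 40.1 and 47.2 in HFD-RD, 82.6, 38.7 and 90.3 in HFD and 182 and 173 in RD-RD. One HFD library lay below both HFD-RD libraries there, and RD-RD lay above all. The changes of region 4 were -2.00 ± 0.34 in HFD-RD (limma adjusted p = 0.000355) and -1.41 ± 0.31 in HFD (limma adjusted p = 0.00168). Region 3 ends 49 bp before region 4, and changed by -1.69 ± 0.22 and -1.30 ± 0.20. Region 1 changed least, by -1.06 ± 0.27 and -0.72 ± 0.25, and its call in HFD relative to RD-RD was lost without either RD-RD library and without HFD replicate 3 (-0.45). None of the 4 was called between HFD-RD and HFD. Otoa is the nearest coding gene to regions 1 and 2.

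Hs3st3a1, another 3-O-sulfotransferase gene, was covered at its start by a region of 2708 bp (chr11:64434385-64437092), one of the most accessible here, with 627 and 574 in HFD-RD, 920, 799 and 1039 in HFD and 2126 and 1860 in RD-RD. No groups overlapped. Hs3st3a1 fell by 1.73 ± 0.21 in HFD-RD (limma adjusted p = 9.54e-05) and by 1.12 ± 0.19 in HFD (limma adjusted p = 0.000483) relative to RD-RD, and its change in HFD-RD relative to HFD was -0.61 ± 0.19 (limma adjusted p = 0.0435). Hs3st5 changed by -1.25 ± 0.28 and -0.76 ± 0.26, but its region lies 795231 bp from the start, in Amd2. Ndst3 (chr3:123652873-123653412, inside the gene) had 115 and 52.8 in HFD-RD, 130, 159 and 156 in HFD and 191 and 249 in RD-RD. It was lowest in HFD-RD, with changes of -1.47 ± 0.32 relative to RD-RD (limma adjusted p = 0.00108) and -0.91 ± 0.29 relative to HFD (limma adjusted p = 0.044), the second being -0.36 without HFD-RD replicate 2. Against RD-RD the change in HFD, -0.56 ± 0.29, did not pass the test (limma adjusted p = 0.0888). Ext1, inside the gene 150553 bp from its start, had 126 and 107 in HFD-RD, 203, 187 and 197 in HFD and 268 and 289 in RD-RD. Its 3 groups were apart, at -1.25 ± 0.20 in HFD-RD relative to RD-RD, -0.51 ± 0.18 in HFD relative to RD-RD and -0.74 ± 0.18 in HFD-RD relative to HFD, all called. The second call was lost without RD-RD replicate 2 (-0.45) and without HFD replicate 1 (-0.54) or 2 (-0.48), and the third without either HFD-RD library (-0.86 and -0.63) and without HFD replicate 1 (-0.72).

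Extl3 had 3 regions inside the gene over 37352 bp, all called higher relative to RD-RD in both comparisons. Region 2 (chr14:65085754-65086442) had the largest rise of the 57 regions in HFD-RD relative to RD-RD, with 133 and 82.4 in HFD-RD, 47.4, 47.7 and 61.9 in HFD and 29.9 and 15.8 in RD-RD. The libraries were ordered by group. Its changes were 2.21 ± 0.31 in HFD-RD (limma adjusted p = 0.000172) and 1.21 ± 0.29 in HFD (limma adjusted p = 0.00246) relative to RD-RD, and 1.00 ± 0.29 in HFD-RD relative to HFD (limma adjusted p = 0.0309, not called without HFD-RD replicate 1, at 0.66, or without HFD replicate 1 or 2). Region 1, 3392 bp away, was highest in HFD instead, with 157 and 201 in HFD-RD, 266, 236 and 309 in HFD and 123 and 127 in RD-RD. There the change was 0.50 ± 0.22 in HFD-RD (limma adjusted p = 0.0432) and 1.10 ± 0.20 in HFD (limma adjusted p = 0.00062) relative to RD-RD. The first was lost without either RD-RD library (0.48 and 0.52), without HFD-RD replicate 2 (0.33) and with equal totals (0.31), and was -0.26 with TMM factors. Region 3 (chr14:65118044-65118745) had 108 and 117 in HFD-RD, 104, 98.7 and 145 in HFD and 16.2 and 54.7 in RD-RD. The groups with a high-fat period overlapped, both above RD-RD, at 1.87 ± 0.42 in HFD-RD (limma adjusted p = 0.00144) and 1.90 ± 0.39 in HFD (limma adjusted p = 0.00112).

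Hs2st1 had the same order as Extl3 region 1, with 237 and 281 in HFD-RD, 396, 360 and 433 in HFD and 159 and 203 in RD-RD. Its change was 0.52 ± 0.22 in HFD-RD (limma adjusted p = 0.0364) and 1.13 ± 0.20 in HFD (limma adjusted p = 0.000518) relative to RD-RD, and -0.61 ± 0.20 in HFD-RD relative to HFD (limma adjusted p = 0.0458). The first was lost with equal totals (0.33), without HFD-RD replicate 2 (0.40), without RD-RD replicate 1 (0.34) and without HFD replicate 1, and was -0.25 with TMM factors. Hs6st1 had 1 region called lower in both comparisons with RD-RD (-1.08 ± 0.23 and -0.74 ± 0.21) and another, 112235 bp away, at which RD-RD had 18.7 and 70.6. That second region changed by 0.87 ± 0.45 in HFD-RD (limma adjusted p = 0.0788) and 1.30 ± 0.41 in HFD (limma adjusted p = 0.0112), and by 1.80 in HFD-RD without RD-RD replicate 2. The change in HFD was not called without RD-RD replicate 1 (0.37) or with TMM factors (0.51).

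**Figure D3:**
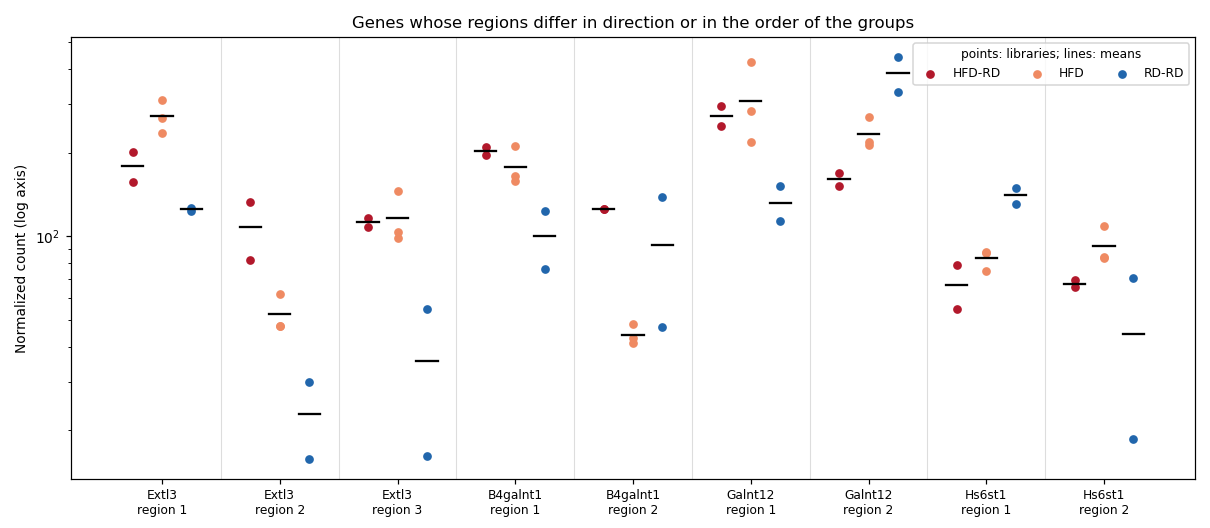
Normalized counts (log axis) in each library at the regions of 4 genes whose regions differed in direction or in the order of the groups, with lines at the group means. Galnt12 and Hs6st1 each have a region where RD-RD lies below HFD-RD on average and one where it lies above, and the RD-RD libraries lie far apart at B4galnt1 region 2, Extl3 region 3 and Hs6st1 region 2.

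Chondroitin and dermatan sulfate genes had 4 regions, 3 higher and 1 lower in both comparisons with RD-RD (1 and 0 higher, and 1 lower in each, with TMM factors). All deposited regions had 64.8% higher and 32.4% lower in HFD-RD, and 59.2% and 29.0% in HFD. With TMM factors these were 17.7% and 33.9%, and 13.2% and 35.7%. Chst11, which sulfates chondroitin at the 4-O position, had 80.2 and 61.1 in HFD-RD, 45.6, 44.4 and 59.3 in HFD and 12.5 and 27.4 in RD-RD at a region inside the gene (chr10:83000290-83000753). The groups did not overlap, and the rise was 1.86 ± 0.32 in HFD-RD (limma adjusted p = 0.000375) and 1.37 ± 0.29 in HFD (limma adjusted p = 0.00144) relative to RD-RD. Chst3, for the 6-O position, and Chst14, for dermatan, rose by 1.07 ± 0.23 and 0.99 ± 0.20 in HFD-RD and by 1.14 ± 0.21 and 1.14 ± 0.19 in HFD, each at a region outside the gene. Chsy3, a synthase of the chondroitin chain, was lower at its gene start, with 409 and 430 in HFD-RD, 597, 664 and 578 in HFD and 1379 and 1382 in RD-RD. Chsy3 fell by 1.72 ± 0.19 in HFD-RD (limma adjusted p = 7.05e-05) and by 1.17 ± 0.18 in HFD (limma adjusted p = 0.000286) relative to RD-RD, and its change in HFD-RD relative to HFD was -0.54 ± 0.18 (limma adjusted p = 0.0475, not called with TMM factors).

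The other carbohydrate sulfotransferases had 3 regions lower, all over a gene start, and 1 higher, far from its gene, in both comparisons with RD-RD. All deposited regions had 32.4% lower and 64.8% higher in HFD-RD, and 29.0% and 59.2% in HFD. Those over gene starts had 90.1% lower in HFD-RD and 75.8% in HFD. Chst8, whose product sulfates GalNAc on glycoproteins such as pituitary hormones, was covered at its start by chr7:34811510-34813326, with 193 and 236 in HFD-RD, 426, 468 and 485 in HFD and 752 and 762 in RD-RD. Every library kept the order of the groups. The changes of Chst8 were -1.82 ± 0.20 in HFD-RD (limma adjusted p = 6.65e-05) and -0.72 ± 0.18 in HFD (limma adjusted p = 0.0038) relative to RD-RD, and -1.10 ± 0.18 in HFD-RD relative to HFD (limma adjusted p = 0.00706). Chst1, which sulfates galactose of keratan sulfate, had 56.5 and 72.2 in HFD-RD, 118, 154 and 126 in HFD and 206 and 204 in RD-RD (chr2:92599557-92600590). It was ordered as Chst8 was, at -1.67 ± 0.22 in HFD-RD (limma adjusted p = 0.000121) and -0.63 ± 0.20 in HFD (limma adjusted p = 0.0116) relative to RD-RD, and -1.04 ± 0.20 in HFD-RD relative to HFD (limma adjusted p = 0.00844). Both changes relative to HFD were not called without HFD-RD replicate 1, at -0.96 for Chst8 and -0.86 for Chst1.

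Chst10, whose product makes the HNK-1 epitope, showed no such step between HFD-RD and HFD. It had 60.2 and 78.7 in HFD-RD, 64.1, 74.9 and 65.3 in HFD and 147 and 173 in RD-RD (chr1:38897620-38898214), and changed by -1.20 ± 0.22 in HFD-RD (limma adjusted p = 0.000461) and -1.22 ± 0.20 in HFD (limma adjusted p = 0.000384) relative to RD-RD. Chst2, which sulfates GlcNAc in L-selectin ligands, had 69.3 and 35.2 in HFD-RD, 61.9, 58.4 and 83.4 in HFD and 12.5 and 25.9 in RD-RD (chr9:95192895-95193406). RD-RD was the lowest group there, with changes of 1.41 ± 0.37 in HFD-RD (limma adjusted p = 0.0032) and 1.84 ± 0.33 in HFD (limma adjusted p = 0.000623), but with TMM factors that in HFD-RD was 0.67 and not called, and the region is 213827 bp from Chst2 and inside Slc9a9.

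The Ugt1a genes, whose products attach glucuronic acid to bilirubin, steroids and drugs, share exons in 1 cluster on chromosome 1, so that an assignment to 1 of them is uncertain. The region assigned to Ugt1a10 (chr1:88046540-88046999) had 126 and 116 in HFD-RD, 74.1, 70.8 and 77.4 in HFD and 42.4 and 36.0 in RD-RD. It was highest in HFD-RD with no overlap, at 1.60 ± 0.20 in HFD-RD (limma adjusted p = 0.000101) and 0.91 ± 0.18 in HFD (limma adjusted p = 0.000971) relative to RD-RD, and 0.70 ± 0.18 in HFD-RD relative to HFD (limma adjusted p = 0.0211, not called with equal totals). That assigned to Ugt1a6b (chr1:88103776-88104260), which also lies in Ugt1a10, Ugt1a7c, Ugt1a8 and Ugt1a9, had 117 and 124 in HFD-RD, 92.1, 105 and 58.5 in HFD and 46.1 and 72.0 in RD-RD. HFD overlapped RD-RD. The change was 1.05 ± 0.30 in HFD-RD (limma adjusted p = 0.00516, lost without RD-RD replicate 1, at 0.73, and with TMM factors, at 0.29) and 0.52 ± 0.27 in HFD (limma adjusted p = 0.0905).

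Directions were also counted by the place of a region. All 7 regions over a gene start of the deposited annotation, those of Chst1, Chst8, Chst10, Chsy3, Fut10, Hs3st3a1 and St3gal6, were called lower in HFD-RD and in HFD relative to RD-RD, also with TMM factors and equal totals. Regions over gene starts were also mostly lower in the whole deposit: of 314, 90.1% were lower and 7.96% higher in HFD-RD relative to RD-RD, and 75.8% lower and 8.92% higher in HFD relative to RD-RD. In HFD-RD relative to HFD, 4 of the 7 were called lower and 0 higher, with 36.3% lower and 1.27% higher among the 314. Inside genes, 20 of 24 glycosylation regions were higher and 4 lower in HFD-RD relative to RD-RD, with 71.7% and 25.6% of all regions inside genes. Upstream of genes, 4 of 18 were higher and 12 lower, whereas 68.1% of all upstream regions were higher and 29.2% lower, and 4 of the 12 were those of Hs3st2. Of 16 regions over 100 kb from the gene start, 5 were higher and 10 lower, with 54.5% and 41.4% of all such regions. Whether these shares differ from those of all regions was not tested.

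**Figure D4:**
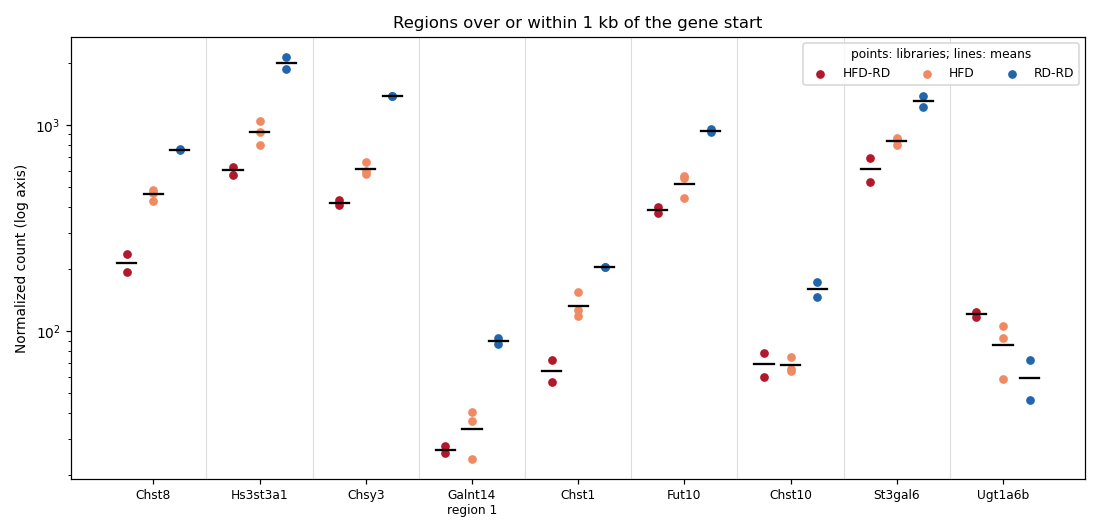
Normalized counts (log axis) in each library at the 9 regions over or within 1 kb of the gene start of the deposited annotation, with lines at the group means. RD-RD is the highest group at 8 of the 9, all but Ugt1a6b. Galnt11, 22940 bp from its deposited start, is not among the 9, although it covers part of a RefSeq start window and was higher in HFD-RD.

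**Figure D5:**
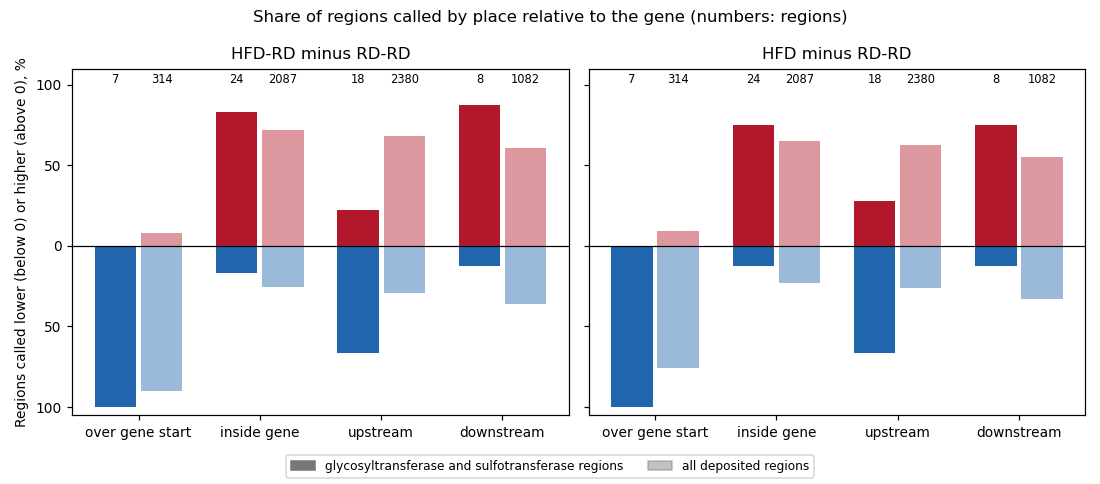
Percent of regions called higher (bars above 0) and lower (bars below 0) by place relative to the assigned gene, for the glycosylation regions (dark) and all deposited regions (light), in HFD-RD minus RD-RD and HFD minus RD-RD. Numbers above the bars are regions. All 7 glycosylation regions over gene starts were lower in both panels, and upstream regions were mostly lower among glycosylation genes (12 of 18) and mostly higher among all regions.

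Assignment to a gene by nearness limits all of these results. By RefSeq, 30 of the 57 regions overlapped the gene they were assigned to and 27 lay outside it, and for 10 of these 27 another coding gene was nearer. All 57 identifiers and symbols matched the RefSeq table. With members limited to the 41 regions within 100 kb of the gene start, 26 were higher and 14 lower in HFD-RD relative to RD-RD. The 16 regions over 100 kb away had 5 higher and 10 lower. Of all deposited regions at any distance 64.8% were higher and 32.4% lower, and of those over 100 kb away 54.5% and 41.4%. The share of all regions within 100 kb was not counted.

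A difference between HFD-RD and HFD, whose time on study differed by 9 weeks, was called in 12 regions. Of the 57 regions 5.26% were called higher and 15.8% lower, beside 10.2% and 12.8% of all deposited regions. Those higher in HFD-RD were B4galnt1 region 2, Extl3 region 2 and Ugt1a10. Those lower included the 4 gene starts of Chst1, Chst8, Chsy3 and Hs3st3a1, and Ext1, Ndst3, Hs2st1 and B3galnt1 region 2. In 7 of the 9 called lower, all but Hs2st1 and B3galnt1 region 2, the mean of HFD lay between those of HFD-RD and RD-RD. At Hs2st1 and B3galnt1 region 2 HFD was the highest group and HFD-RD lay between HFD and RD-RD. These counts rest on few libraries: without HFD-RD replicate 1, 0 regions were higher and 1 lower, and without HFD-RD replicate 2, 3 and 4, without HFD replicate 1, 1 and 2, without HFD replicate 2, 1 and 6, and without HFD replicate 3, 3 and 3.

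Genes that act around these enzymes were counted in 4 further lists. Of all deposited regions 64.8% were higher and 32.4% lower in HFD-RD relative to RD-RD (17.7% and 33.9% with TMM factors), and 59.2% and 29.0% in HFD relative to RD-RD (13.2% and 35.7% with TMM factors). Of 35 genes that supply sugar nucleotides and sulfate donors, 9 had 11 regions, 9 higher and 2 lower in HFD-RD relative to RD-RD and 8 and 2 in HFD relative to RD-RD (2 and 2 in each with TMM factors). Ugp2, which makes UDP-glucose, had a region 57431 bp upstream. It had 201 ± 8.64 in HFD-RD, 96.6 ± 9.13 in HFD and 31.4 ± 12.7 in RD-RD (SD, n = 2, 3 and 2). This region rose by 2.70 ± 0.26 in HFD-RD relative to RD-RD (limma adjusted p = 3.92e-05). Mpi, which interconverts fructose and mannose phosphates, fell by 1.90 ± 0.21 in the same comparison, with 28.9 ± 0.342 in HFD-RD, 47.6 ± 8.14 in HFD and 111 ± 5.68 in RD-RD. Papss1 and Papss2, the synthases of the sulfate donor, differed from each other, at 1.28 ± 0.36 and -1.70 ± 0.24, and were named after their values were seen.

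Of 35 genes that remove or break down glycans, 11 had 17 regions, 15 higher and 1 lower in HFD-RD relative to RD-RD and 15 and 2 in HFD relative to RD-RD (6 and 2, and 4 and 2, with TMM factors). Sulf2, which removes sulfate from heparan chains outside the cell, had a region at 218 ± 27.6 in HFD-RD, 133 ± 15.7 in HFD and 60.7 ± 2.29 in RD-RD, and rose by 1.82 ± 0.21 in HFD-RD relative to RD-RD. The second was a region of Manba, the lysosomal beta-mannosidase, at 1.61 ± 0.25. Among 44 genes of glycan carriers and readers, 16 had 28 regions, 21 higher and 6 lower in HFD-RD relative to RD-RD and 22 and 5 in HFD relative to RD-RD (8 and 6, and 4 and 6, with TMM factors). The heparan sulfate proteoglycan gene Gpc1 had 6 of these regions, 32275 to 86825 bp upstream, all higher in HFD-RD relative to RD-RD, at 1.03 to 2.06. Cspg4, a chondroitin sulfate proteoglycan gene, had 2, at 1.91 and 1.66. Among other heparan sulfate proteoglycan genes of the list Sdc1 and Tgfbr3 were called higher, at 0.54 and 1.24. Called lower were 3, Gpc6 at -1.72, Gpc3 at -1.34 and Sdc3 at -1.19. Srgn, also a proteoglycan gene, was called higher, at 1.25. Hyaluronan receptor genes went both ways. Lyve1 was called lower, at -1.82, while both Stab2 regions were called higher, at 1.52 and 0.90. Cd44 regions were called higher, at 0.74 to 1.22, except a region at 0.23 that was not called. Of 52 other genes of glycan assembly, 8 had 12 regions, 3 higher and 7 lower in HFD-RD relative to RD-RD and 5 and 6 in HFD relative to RD-RD (0 and 7 in each with TMM factors). The leading decreases were at A4galt, the synthase of globotriaosylceramide on which B3galnt1 acts, at -2.38 ± 0.31, and C1galt1, which extends the first sugar of mucin-type O-glycans, at -2.25 ± 0.30. That A4galt region lies inside the gene. Another, over the gene start, was also called lower, at -1.49, but one 40468 bp upstream was called higher, at 0.61. The C1galt1 region lies 156002 bp from the gene start. In HFD-RD relative to HFD the 4 lists had, in the same order, 2 regions higher and 2 lower, 2 and 0, 2 and 3, and 0 and 5. The background was 10.2% higher and 12.8% lower. With equal totals the lists had 2 and 2, 1 and 2, 1 and 6, and 0 and 9, beside 6.12% and 26.9% of all regions.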

How the data were processed

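The authors' 7 deposited tables are the parts of a Venn diagram of differences between the diet groups. The deposited signal of each region and library is coverage as normalized counts: within a tolerance of 1e-06, 100% of values were whole multiples of 1 step per library. Taking 1 step as 1 read, this gave size factors of 0.548 to 2.21. The tables also hold the authors' log2 fold change with its error, a score (the Wald statistic) and p-values, deposited for 1 comparison per table that the headers do not name; it was read from the group means. MACS2 2.0.10, DESeq2, deepTools, Picard and the build GRCm38 are named in the submitters' processing notes without roles; the aligner is not given in the sources used here.

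Changes were tested with limma 3.58.1 (R 4.3.3) on log2(normalized count + 1), with 3 groups in 1 fit and no replicate block, on 5898 regions, and adjusted by the Benjamini–Hochberg method at 0.05. A minimum mean of 10 removed 0 regions, so all 57 glycosylation regions were tested. Of these, 2 are in the counts but are not reported singly here. The fit had 4 residual and 7.2 prior degrees of freedom. The script was tested on simulated data. Count models were not run: no deposited value was under 4 steps, so that 1 step is 1 read was not seen from values of 1 step. Replicate numbers were not taken as pairs: same-numbered deviations correlated at -0.0716 to 0.0628. Deviations within a group of 2 libraries mirror each other, so these values cannot show that libraries were not processed in pairs. Depth and the number of libraries both limit precision, at 10 or more reads per glycosylation region and library if 1 step is 1 read. Regions given in full were the largest changes per comparison and per family and those within 1 kb of a gene start. Coordinates count from 1. The regions, gene lists and rules were chosen with earlier results of these data known. Alternatives were other scalings, pseudocounts, filters, a fold threshold, 1 region per gene, the replicate block and leaving out each library.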

Additional observations from a re-analysis of the deposited data

How the results depend on the processing

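Regions called lower in HFD-RD relative to RD-RD stayed at 22 to 24 under every alternative that counts regions but the limit to 100 kb. That limit kept 41 regions with their calls unchanged, and 14 of these were lower. Leaving out each library gave 24 to 24 lower. Regions called higher in the same comparison numbered 9 with TMM factors and 25 to 32 without each library. In HFD relative to RD-RD, TMM factors gave 8 called higher, and an absolute log2 change of at least 1 gave 10 lower. The limit to 100 kb gave 14 lower of the 41 regions kept. Leaving out each library gave 25 to 31 higher and 18 to 24 lower. In HFD-RD relative to HFD, a log2 change of at least 1 gave 1 higher and 2 lower, equal totals 18 lower and the replicate block 2 lower, and leaving out each library gave 0 to 3 higher and 1 to 11 lower. TMM centres on regions chosen because they differ. It turned the sign of 6 called changes: in HFD-RD relative to RD-RD Mgat5 region 6 (-0.21), Extl3 region 1 (-0.26), B3galnt1 region 2 (-0.089) and Hs2st1 (-0.25), and in HFD relative to RD-RD St3gal1 (-0.17) and Man1a2 (-0.18). With the replicate block, 29 were higher and 24 lower in HFD-RD relative to RD-RD, 29 and 19 in HFD relative to RD-RD, and 2 and 2 in HFD-RD relative to HFD.

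With 1 region per gene, that of the highest mean, 50.0% of the 38 genes were higher and 50.0% lower in HFD-RD relative to RD-RD, 42.1% and 47.4% in HFD relative to RD-RD, and 2.63% and 23.7% in HFD-RD relative to HFD. For all deposited genes these were 62.1% and 35.0% in HFD-RD relative to RD-RD 55.9% and 31.1% in HFD relative to RD-RD, and 10.1% and 13.3% in HFD-RD relative to HFD. Pseudocounts of 0.5 and 5, no filter, a minimum mean of 50 and a fit of only the 2 groups compared left every count within 1.5 times. The count tests planned as alternatives were not run. Groups of 2 and 3 libraries, and regions deposited because they differ, limit these results as well.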
